A study of Homo sapiens with 4 samples.

Results

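The genes described here edit or read ubiquitin on the signalling complexes that switch on nuclear factor kappa B (NF-kB), the transcription factor of the inflammatory response, or are adaptors and ligases of those complexes. The list held 10 genes: TNFAIP3, TNIP1, TNIP2, CYLD, BIRC2, BIRC3, TRAF1, TRAF2, RNF31 and RBCK1. Members were the probe sets, groups of short probes for a transcript, that the array's annotation assigns to a single listed symbol. They came to 22 of 54613 probe sets and covered 8 of the 10 genes. BIRC3 and TRAF2 were not analysed here. A further probe set is shared by RNF31 and IRF9 and was not used.

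Expression was measured on Affymetrix arrays in MKN45, an established line of human gastric epithelial cells from an adenocarcinoma. Cells plated the day before were given either fresh medium (untreated, 2 arrays) or medium with 10 µg/ml lipopolysaccharide (LPS), the outer-membrane glycolipid, of Helicobacter pylori (2 arrays), and RNA was taken at 8 h in both groups. All cells grew in RPMI medium with foetal calf serum, glutamine, penicillin and streptomycin, so the control had the same medium without LPS. The series text speaks of 2 independent experiments in this 1 cell line, and the p-values measure only the spread between these 4 arrays.

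When a Toll-like or TNF-family receptor is engaged, ligases such as the cIAP proteins and the linear ubiquitin chain assembly complex (LUBAC) build ubiquitin chains that recruit the kinases upstream of NF-kB. A20 (the product of TNFAIP3), its ABIN partners and CYLD take such chains down or block their reading, and so limit the signal. Several of these brakes, TNFAIP3 above all, are themselves NF-kB target genes, which makes a negative feedback loop.

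The values were log2 probe set levels, with medians of 7.004 to 7.034 over the 4 arrays, and a difference below is always LPS minus untreated on that scale. A level filter kept probe sets whose mean over the 4 arrays was at least 6.06, the 30 percentile, and it left 38229. Of the members, 19 of 22 passed, all 19 also by their untreated mean alone, and 3 faint ones did not. All 7 epithelial markers looked for were above the filter, with mean levels of 9.51 to 14.62. Of 6 leukocyte markers 4 had a probe set of their own and 2 passed the filter, as did 4 of 4 fibroblast and 2 of 3 endothelial markers, with mean levels up to 8.55, 9.17 and 7.89. By group the epithelial list averaged 12.72 untreated and 12.75 with LPS, the leukocyte list 6.85 and 6.91, the fibroblast list 7.73 and 7.89 and the endothelial list 6.53 and 6.56. The mean of the poly-A spike-ins, bacterial RNAs put in ahead of labelling, was 8.60 and 8.25 untreated and 7.98 and 7.92 with LPS. The level of the 3′ actin (ACTB) probe set over the 5′ one, a measure of RNA integrity, was 0.64 and 0.86 untreated and 0.39 and 0.63 with LPS. For GAPDH it was 0.02 and 0.07 untreated and 0.0010 and 0.11 with LPS. The part of the fibroblast markers, the spike-ins and the actin values in the results below was not tested.

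TNFAIP3 had the largest differences of the 8 genes, on both of its probe sets, and neither passed the test. It encodes A20, a deubiquitinase and ubiquitin ligase that takes down the chains on signalling proteins. On probe set 202644_s_at the untreated arrays read 7.67 and 7.69 and the LPS arrays 8.26 and 8.02. Both LPS arrays lay above both untreated arrays, and the gap of 0.33 between the groups was wider than the spread of 0.02 within the untreated pair and of 0.24 within the LPS pair. The difference was 0.46 (95% interval 0.23 to 0.69), a 1.38-fold higher level (interval 1.17 to 1.62), with a limma adjusted p of 0.218 over all 38229 probe sets (unadjusted p = 0.00212). RNA came from all cells of a culture together, so more RNA per cell and more cells with the transcript cannot be told apart here or below.

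On the other TNFAIP3 probe set, 202643_s_at, the untreated arrays read 6.92 and 6.55 and the LPS arrays 7.30 and 7.08. The groups again did not overlap, but the gap of 0.16 was narrower than the spread of 0.37 within the untreated pair. The difference was 0.45 (interval 0.13 to 0.78; 1.37-fold), with a limma adjusted p of 0.316 (unadjusted p = 0.0127). The probe sets therefore gave nearly the same size of difference. Of all probe sets tested, 31 differed upward by at least as much as 202644_s_at and 32 by at least as much as 202643_s_at, each count including the probe set itself. Left-out arrays moved these values: the difference ran from 0.34 (without LPS replicate 1) to 0.58 (without LPS replicate 2) on 202644_s_at, and from 0.27 (without untreated replicate 2) to 0.64 (without untreated replicate 1) on 202643_s_at.

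TNIP1 encodes ABIN-1, a ubiquitin-binding adaptor that brings A20 to its targets. Its 2 probe sets gave differences of unequal size, neither past the test. On 243423_at the untreated arrays read 7.24 and 7.21 and the LPS arrays 7.53 and 7.54, with a gap of 0.29 against spreads of 0.03 and 0.0049. That difference was 0.31 (interval 0.13 to 0.49; 1.24-fold), with a limma adjusted p of 0.255 (unadjusted p = 0.00410). It stayed between 0.29 and 0.33 when any 1 array was left out.

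On the brighter TNIP1 probe set, 207196_s_at, the untreated arrays read 9.76 and 9.73 and the LPS arrays 9.80 and 9.86. The groups did not overlap here either, with a gap of 0.04. The difference was 0.09 (interval -0.08 to 0.25), with a limma adjusted p of 0.663. It was 0.14 after quantile normalization. The probe sets thus differed from each other by 0.22 in their LPS minus untreated value. With 2 arrays a group, an exact permutation test of a single value cannot give a two-sided p below 0.33, so none is given for this contrast.

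TNFAIP3, TNIP1 and CYLD were the 3 of the 8 genes whose RefSeq promoter windows (build GRCh38.p14) held the 10-base NF-kB consensus. The consensus begins with GGG and ends with CC. A link between these matches and the LPS minus untreated differences was not tested. Each window ran from 250 bases before to 50 after an annotated start, and both strands were searched. Of 15 windows of the 8 genes 4 held it, against 11.3% of all 35116 windows, and 3 of 8 genes against 13.3% of 27305 genes. A match is a run of letters and was not measured as a binding site. The 250 bases before the start are printed here for 1 window of each gene, 5′ to 3′ on the gene's strand, with matches on either strand in capitals.
TNFAIP3, chr6:137867009-137867258, plus strand: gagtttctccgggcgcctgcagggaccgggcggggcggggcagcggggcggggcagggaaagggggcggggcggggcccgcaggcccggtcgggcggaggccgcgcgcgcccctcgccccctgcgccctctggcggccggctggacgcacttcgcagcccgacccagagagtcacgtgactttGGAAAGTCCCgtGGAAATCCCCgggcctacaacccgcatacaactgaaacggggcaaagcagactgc
TNIP1, chr5:151081035-151081284, minus strand: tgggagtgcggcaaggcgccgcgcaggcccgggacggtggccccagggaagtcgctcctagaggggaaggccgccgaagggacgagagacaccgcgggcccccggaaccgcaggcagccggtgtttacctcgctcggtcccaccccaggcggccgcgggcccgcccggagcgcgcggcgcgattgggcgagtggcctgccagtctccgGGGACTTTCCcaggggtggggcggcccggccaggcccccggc
CYLD, chr16:50741836-50742085, plus strand: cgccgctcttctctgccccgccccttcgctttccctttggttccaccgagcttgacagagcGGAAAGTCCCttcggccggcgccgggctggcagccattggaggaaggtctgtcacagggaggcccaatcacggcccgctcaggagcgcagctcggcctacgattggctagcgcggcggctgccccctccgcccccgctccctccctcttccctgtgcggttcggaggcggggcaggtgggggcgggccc

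The TNFAIP3 window held the consensus at 2 places, from 67 to 58 and from 55 to 46 bases upstream of the start, both on the reverse strand. The TNIP1 window held it at 1 place, 42 to 33 bases upstream, and the window of the other TNIP1 start held none. The TNIP1 match, read forward, and the farther TNFAIP3 match, read on the reverse strand, were the same 10 letters, GGGACTTTCC. The CYLD window printed held it 189 to 180 bases upstream, again as GGGACTTTCC on the reverse strand. A second CYLD start had a match at the start itself, and the remaining CYLD window had none. The windows of TNIP2, BIRC2, TRAF1, RNF31 and RBCK1 had no match, which says only that these letters were not in those windows. For the reference genes the consensus lay in the windows of CCL20, CXCL1 and NFKBIA and not in that of CXCL8. RELB had no window among those read.

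**Figure D1:**
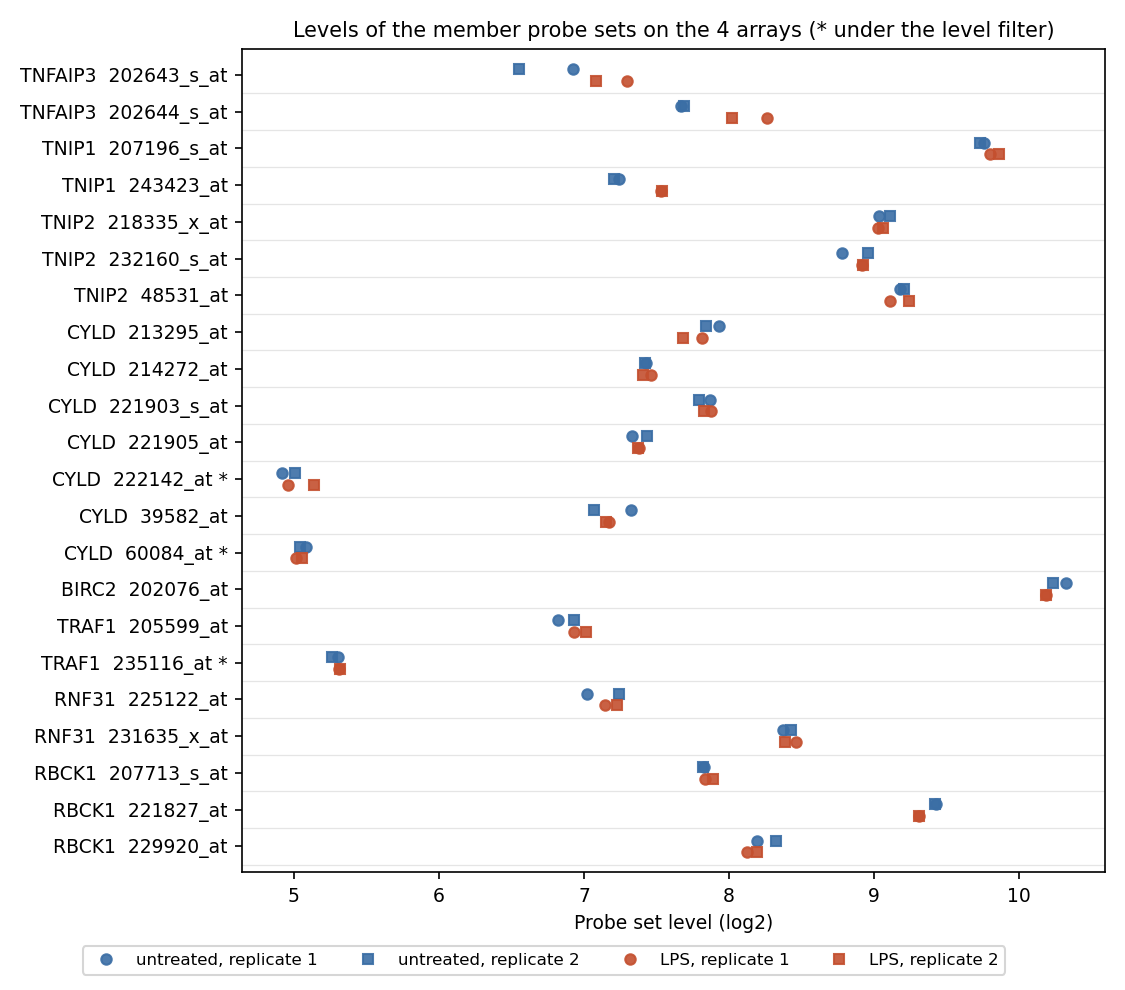
Log2 level of each of the 22 member probe sets (rows) on the 4 arrays, with untreated arrays in blue and LPS arrays in red, circles for replicate 1 and squares for replicate 2. Levels are to be read within a row. The LPS arrays of TNFAIP3 (8.26 and 8.02 on 202644_s_at) and of TNIP1 243423_at (7.53 and 7.54) lie to the right of the untreated ones, while the groups lie close together or overlap on the other rows.

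TNIP2 encodes ABIN-2, a relative of ABIN-1 that also stabilises the kinase TPL2. All 3 of its probe sets had overlapping groups. On 48531_at the untreated arrays read 9.18 and 9.20 and the LPS arrays 9.11 and 9.24, a difference of -0.02 (interval -0.21 to 0.17). The other TNIP2 differences were -0.03 on 218335_x_at (interval -0.20 to 0.15) and 0.05 on 232160_s_at (interval -0.16 to 0.25), with limma adjusted p-values of 0.864 to 0.955 for the 3. The TNFAIP3 differences of 0.45 and 0.46 lay above all 3 intervals, but the TNFAIP3 interval that began at 0.13 overlapped each of them. A difference between the genes was not tested.

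CYLD encodes a deubiquitinase and tumour suppressor that cleaves the chains built by LUBAC and TRAF proteins. It had 7 probe sets, 5 of them above the filter, with 3 differences above 0 and 4 below. On 213295_at the untreated arrays read 7.93 and 7.84 and the LPS arrays 7.82 and 7.68. Both LPS arrays were lower, and the difference of -0.14 (interval -0.34 to 0.06) did not pass (limma adjusted p = 0.560). It was -0.20 without LPS replicate 1 and -0.07 without LPS replicate 2. On the remaining 4 tested CYLD probe sets the groups overlapped, with differences of 0.0099 (214272_at), 0.02 (221903_s_at), -0.0047 (221905_at) and -0.04 (39582_at). On 39582_at the untreated arrays themselves stood apart, at 7.33 and 7.07, around LPS values of 7.17 and 7.15. The faint CYLD probe sets read 4.91 to 5.14 on 222142_at, with a difference of 0.09, and 5.01 to 5.09 on 60084_at, with a difference of -0.03, in the fit with no level filter.

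RNF31 encodes HOIP, the catalytic ligase of LUBAC, and RBCK1 encodes its partner HOIL-1. On RNF31 probe set 231635_x_at the untreated arrays read 8.37 and 8.43 and the LPS arrays 8.46 and 8.39, a difference of 0.03 (interval -0.16 to 0.21). On 225122_at they read 7.02 and 7.24 untreated and 7.15 and 7.23 with LPS, a difference of 0.06 (interval -0.17 to 0.29). The groups overlapped on both RNF31 probe sets (limma adjusted p = 0.927 and 0.859).

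The RBCK1 probe sets did not all differ in the same direction. The untreated arrays read 9.43 and 9.42 and the LPS arrays 9.31 and 9.31 on 221827_at, a tight separation downward of -0.11 (interval -0.28 to 0.05) that did not pass (limma adjusted p = 0.561). It was -0.07 after quantile normalization or cyclic loess, and -0.06 for the mean of the gene's probe sets. On 229920_at the values were 8.19 and 8.32 untreated and 8.13 and 8.20 with LPS, overlapping, with a difference of -0.10. On 207713_s_at they were 7.83 and 7.82 untreated and 7.83 and 7.89 with LPS, a difference of 0.04 in the opposite direction. Limma draws each variance toward the trend over all probe sets, and the interval on 221827_at was wider than the close agreement of its replicates.

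TRAF1 encodes an adaptor without a RING domain that binds TRAF2 and the cIAPs. On its tested probe set, 205599_at, the untreated arrays read 6.82 and 6.93 and the LPS arrays 6.93 and 7.02. The groups overlapped, and the difference was 0.10 (interval -0.10 to 0.30; limma adjusted p = 0.687). The second TRAF1 probe set, 235116_at, was faint at 5.26 to 5.32 on all arrays and differed by 0.03.

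BIRC2 encodes cIAP1, a RING ligase that modifies RIPK1 and marks the kinase NIK for degradation. Its only probe set, 202076_at, read 10.32 and 10.23 untreated and 10.18 and 10.19 with LPS. Both LPS arrays were lower by a small margin, with a difference of -0.09 (interval -0.25 to 0.07; limma adjusted p = 0.633). After quantile normalization the BIRC2 difference was -0.03.

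**Figure D2:**
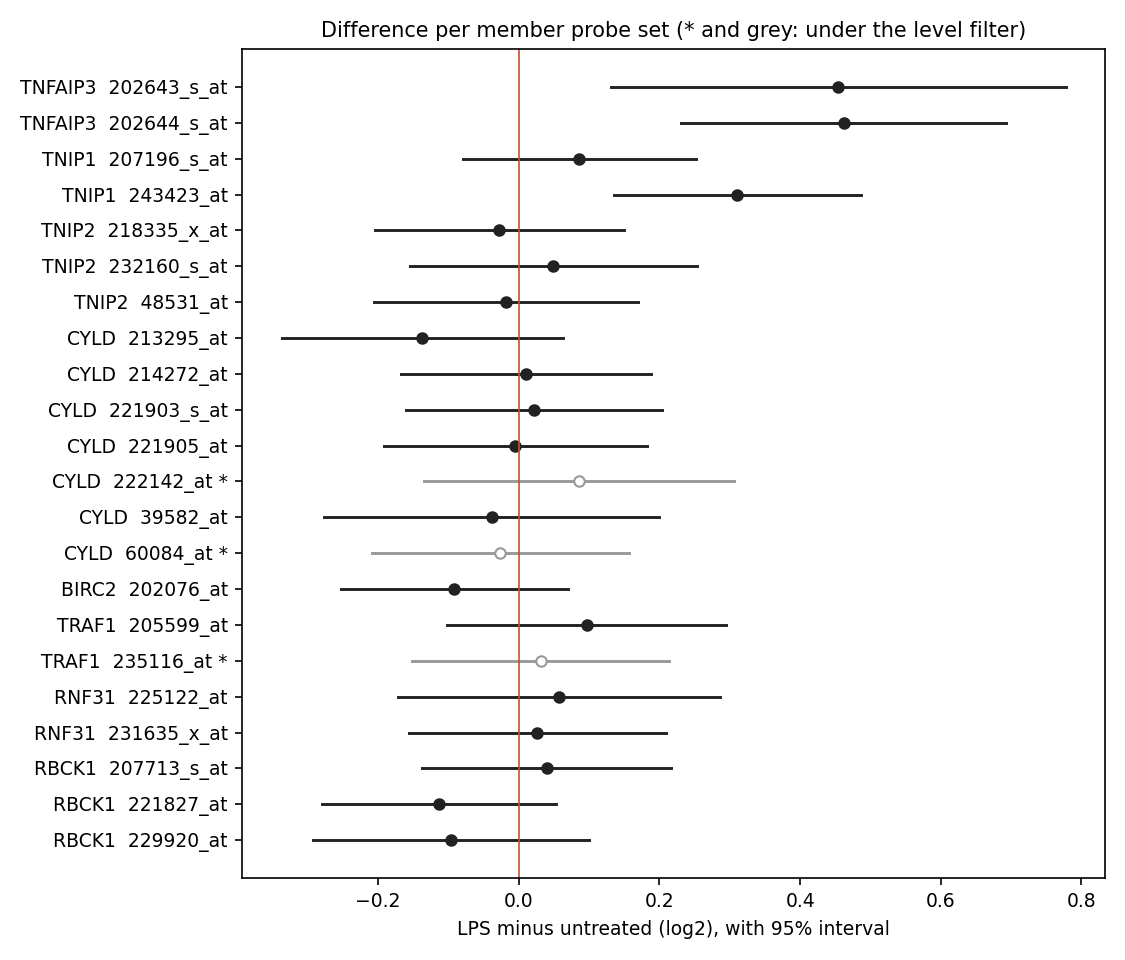
LPS minus untreated difference (log2) of each member probe set with its 95% interval from limma. Grey open points are the 3 probe sets under the level filter, from the fit without it. The intervals of TNFAIP3 (0.13 to 0.78 and 0.23 to 0.69) and of TNIP1 243423_at (0.13 to 0.49) lie above 0 before adjustment, and those of the other 19 probe sets include 0.

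As a set, the members gave no call. In limma 0 of 19 tested probe sets were higher at an adjusted p under 0.05, where 0.00785% of all 38229 were, and 0 were lower, where 0% of all were. At an unadjusted p under 0.05, 3 of 19 were higher against 3.69% of all probe sets, and 0 were lower against 8.02%. These 3 were both TNFAIP3 probe sets and TNIP1 243423_at, so they stand for 2 genes. Both LPS arrays lay above both untreated arrays on 5 of 19, against 19.1% of all probe sets, and below them on 3 of 19, against 24.2%. The 5 were both probe sets of TNFAIP3, both of TNIP1 and RBCK1 207713_s_at, and the 3 were CYLD 213295_at, BIRC2 202076_at and RBCK1 221827_at. Each of the last 2 counts was within 2 probe sets of the number that the share over all probe sets would give.

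The median difference of the 19 was 0.02, against -0.0039 over all tested probe sets. Without TNFAIP3 and TNIP1 the remaining 15 had a median of -0.0047, with 7 above 0 and 8 below, and ran from -0.14 to 0.10. Their median size, whatever the sign, was 0.04, and that of all 19 was 0.06, against 0.08 over all probe sets tested. The 15 leave out the genes with the largest differences, so their smaller median size is partly built in. The intervals of these 15 reached from 0.79-fold at the lowest (CYLD 213295_at) to 1.23-fold at the highest (TRAF1 205599_at). Larger changes at 8 h lay outside the 95% interval of each tested probe set of TNIP2, CYLD, RNF31, RBCK1, TRAF1 and BIRC2. Each interval stands for its probe set alone and was not adjusted for their number. The interval of CYLD 222142_at, which was under the filter, reached 1.24-fold. On the same arrays the NF-kB-responsive chemokine CCL20 differed by 2.93, CXCL1 by 1.99 and CXCL8 by 1.73, and these 3 passed in limma (adjusted p = 9.82e-05, 0.000287 and 0.00125 over genes). CXCL8 lost its call over probe sets without LPS replicate 1 (limma adjusted p = 0.0583) or without LPS replicate 2 (0.0546). NFKBIA, the inhibitor of NF-kB, differed by 0.49 on its brightest probe set and by -0.0058 on its other one, which gave 0.24 for their mean. The NF-kB subunit RELB differed by 0.57, and neither gene passed the threshold.

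**Figure D3:**
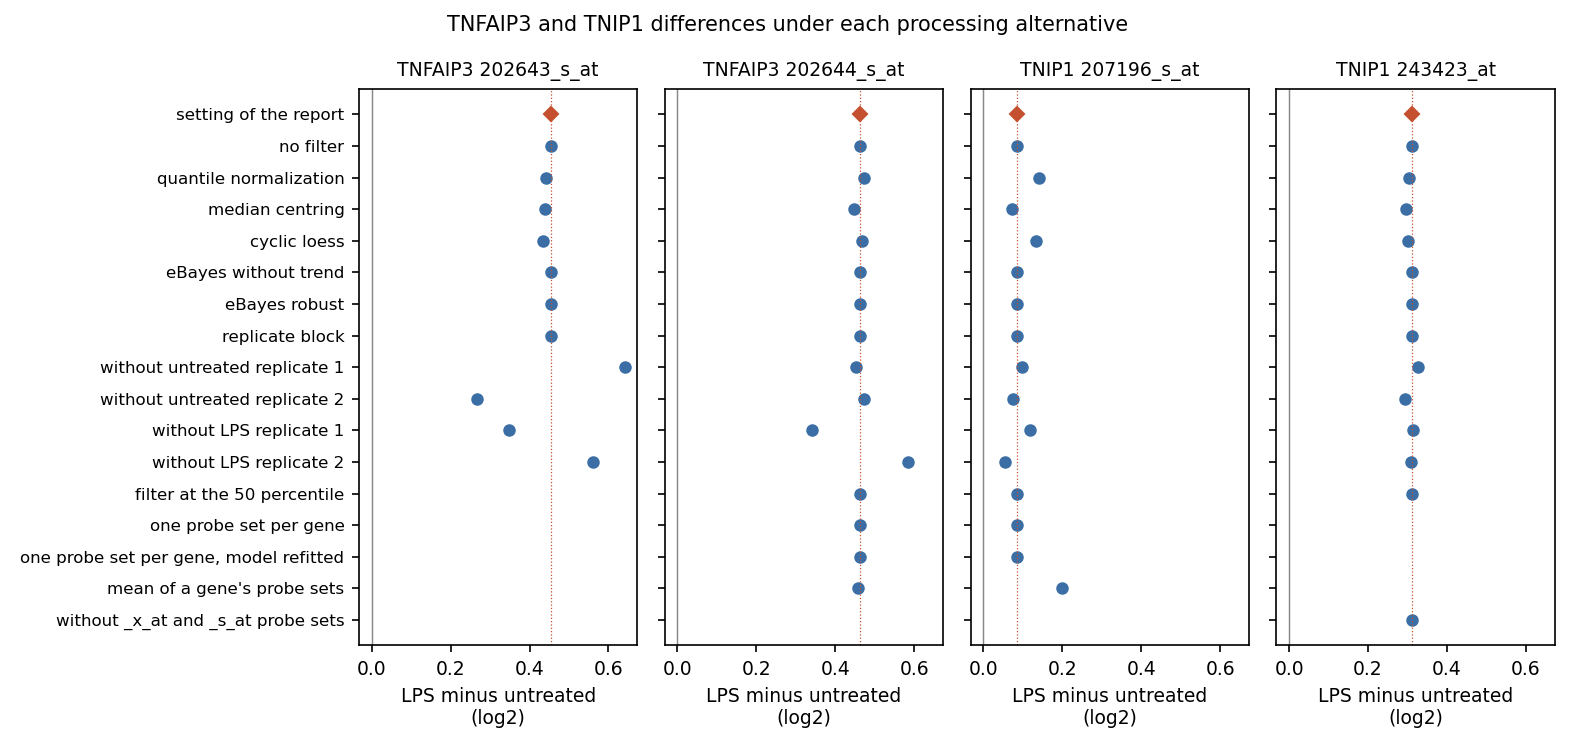
Difference (log2) of the TNFAIP3 and TNIP1 probe sets (panels) under each processing alternative (rows), with the value of the report as a red diamond and dotted line. A row without a point is an alternative in which that probe set was not tested. All points lie above 0, and those of TNFAIP3 move most when an array is left out (0.27 to 0.64 on 202643_s_at). Only the other normalizations could have put a point below 0.

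Other genes of the same machinery were read from 7 lists with 53 genes, each by its brightest probe set, and 47 could be tested. In limma, adjusted over 16252 genes, 0 of 47 were higher, where 0.0246% of all genes were, and 0 were lower, where 0% were. At an unadjusted p under 0.05, 2 of 47 were higher against 3.72% of genes, and 2 were lower against 7.91%, each count within 2 genes of the number that the share over all genes would give. The median over the 47 was -0.02, against -0.0047 over all genes.

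Among the other TRAF proteins and their binders, 1 of 8 had an unadjusted p under 0.05 upward and 1 downward. TRAF4, an adaptor of the same family, read 8.87 and 8.78 untreated and 9.16 and 9.23 with LPS. Its groups did not overlap, and the difference of 0.37 (interval 0.19 to 0.55; limma adjusted p = 0.285) was the largest of the 47. The other 3 TRAF4 probe sets differed by 0.03 to 0.40, all upward. TRAF5, an adaptor of CD40 and the lymphotoxin receptor, read 10.02 and 9.82 untreated and 9.70 and 9.73 with LPS (difference -0.21, limma adjusted p = 0.419), and its second probe set differed by 0.0039. The TRAF5 difference was -0.11 without untreated replicate 1 and -0.31 without untreated replicate 2.

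Of the A20 partners 3 of 4 were tested. TAX1BP1, a ubiquitin-binding adaptor of A20, read 12.28 and 12.08 untreated and 11.95 and 11.93 with LPS, a difference of -0.24 (interval -0.41 to -0.07, limma adjusted p = 0.335), and its other 2 probe sets differed by -0.10 and -0.08. The difference was -0.14 without untreated replicate 1, and -0.14 for the mean of its probe sets. RNF11, a small RING protein of the A20 complex, differed by 0.02. In the linear ubiquitin list 2 of 4 were tested, the LUBAC subunit SHARPIN at -0.09 and the linear-chain deubiquitinase OTULIN at -0.02. At an unadjusted p under 0.05 these lists held 0 members that were higher and 1 that was lower, TAX1BP1.

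Of the other deubiquitinases linked to NF-kB, 8 of 9 were tested, with a median of -0.0097. OTUB2 read 7.79 and 7.82 untreated and 7.94 and 8.04 with LPS, a difference of 0.19 (interval 0.0046 to 0.37; limma adjusted p = 0.421), and USP4 differed by -0.10. The other inhibitor of apoptosis proteins and their antagonists (7 of 7 tested, median -0.03) ran from -0.12, for XIAP, to 0.04, and NAIP differed by -0.08. XIAP's 6 other probe sets ran from -0.14 to 0.09, with 3 of them above 0, and the mean of its probe sets differed by -0.03. Receptor complex proteins and chain readers (12 of 14 tested, median -0.07) were led by TAB2 at -0.22, whose other 2 probe sets differed by 0.13 and 0.18, and by its kinase partner MAP3K7 at -0.14. The TRAF-binding TNF receptors (7 of 7 tested, median 0.07) ran from TNFRSF11A at -0.16 to TNFRSF1B at 0.15. The TNFRSF11A value rested on its brightest probe set: the other differed by 0.06, their mean by -0.05, and the brightest by -0.09 without LPS replicate 1. None of the genes in this paragraph passed in limma, with adjusted p-values of 0.421 and above for those named.

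**Figure D4:**
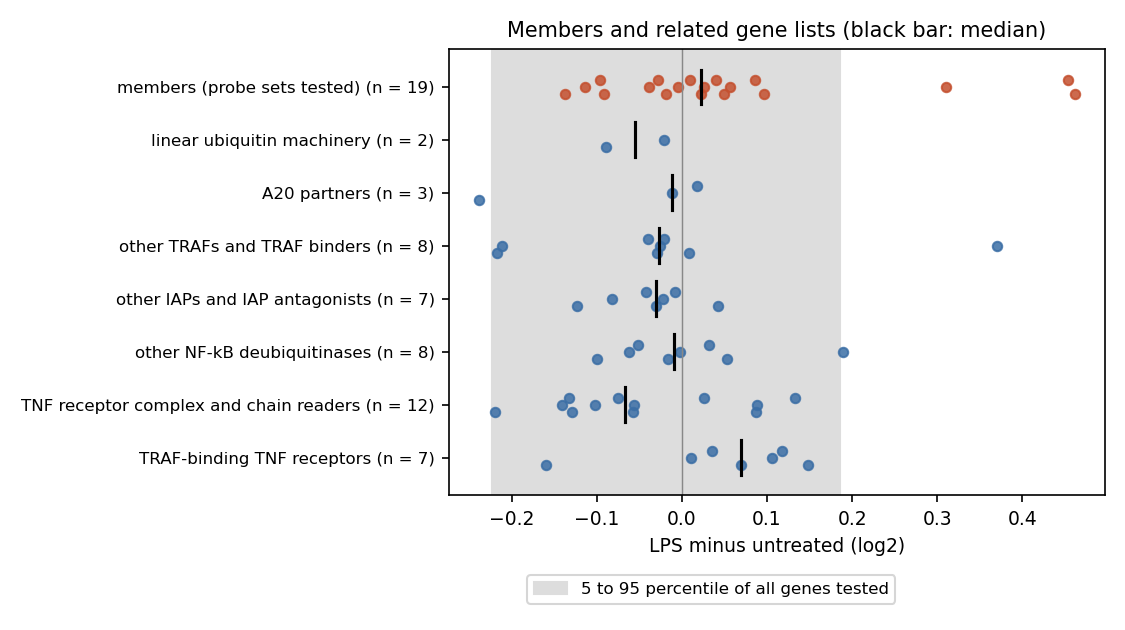
Differences (log2) of the 19 tested member probe sets (red) and of the 47 related genes by list (blue, 1 brightest probe set per gene), with medians as black bars. The grey band spans the 5 to 95 percentile of all 16252 genes tested, from -0.22 to 0.19. Among the members both TNFAIP3 probe sets and TNIP1 243423_at lie to the right of the band, and TRAF4 (0.37) and, at its edge, OTUB2 (0.19) do so among the related genes, while TAX1BP1 (-0.24) lies to its left.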

How the data were processed

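The data were 4 Affymetrix arrays, 2 untreated and 2 LPS-treated, grouped by their labels. The deposited values are log2 probe set levels, judged from the values. MAS5 and RMA are the tools named per the submitters' processing notes, and versions, the software behind the deposited values and a genome build are not given in the sources used here. The arrays had near-equal distributions as deposited, so a change shared by all transcripts could not be seen. The suffixes _x_at and _s_at mark probe sets that may cross-hybridise between genes.

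Control probe sets (62) did not enter the tests. Symbols came from the platform annotation, with a single symbol on 41091 probe sets, more than 1 on 1801 and no symbol on 11721. Entrez identifiers matched 41037 of the single symbols to the RefSeq table. The test was limma 3.58.1 (R 4.3.3), lmFit and eBayes with an intensity trend and no replicate block, two-sided, over the 38229 probe sets at or above the 30 percentile of mean level, with Benjamini-Hochberg adjustment and a threshold of 0.05. Values of members under the filter came from the same fit with no filter. For genes, the brightest probe set's p was adjusted over 16252 genes. The procedure was run on simulated data with independent errors and planted changes larger than any member difference reported from all 4 arrays. That run does not show how often changes of the members' size would be found.

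All 10 members are named, and in each related list the genes past the threshold or, with none, the 2 with the smallest p. CCL20, CXCL1, CXCL8, NFKBIA and RELB are named for reference. The members and lists were chosen with earlier results of these data known. Alternatives were other filters, normalizations, variance models and gene summaries, the replicate number as a block, and leaving out each array. The planned comparison of protein sequences was not made here. The number of arrays limits the precision.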

Additional observations from a re-analysis of the deposited data

How the results depend on the processing

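The 19 tested member differences were recomputed under up to 16 alternatives each, 261 values in all, and none was past the limma threshold, with 0.112 as the smallest adjusted p (TNFAIP3 202644_s_at, 1 probe set per gene with the model refitted, an alternative chosen after seeing the data). Both TNFAIP3 and both TNIP1 probe sets kept their upward direction in every one, but only the other normalizations could have turned it. Their groups did not overlap, so leaving out 1 array could not reverse the direction. The filters, variance models and replicate block left the difference itself unchanged, and a mean of upward probe sets is upward. With 1 array left out, the count of all probe sets past the threshold ran from 2 to 5 higher and from 0 to 6 lower.

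Direction turned in 19 of the 261 member values, on 9 probe sets of small difference. It also turned for the related genes OTULIN and NAIP, which are given below and lie outside these counts. After quantile normalization and cyclic loess TNIP2 read 0.022 and 0.010 on 218335_x_at and 0.029 and 0.022 on 48531_at, and OTULIN 0.025 and 0.022. Averaged over probe sets, TNIP2 was 0.0010, CYLD -0.030 and OTULIN 0.0021, and with median centring CYLD 214272_at was -0.0043. With 1 array left out the range was -0.063 to 0.0074 for TNIP2 218335_x_at, -0.040 to 0.14 for 232160_s_at and -0.084 to 0.047 for 48531_at. For CYLD it was -0.017 to 0.037 on 214272_at, -0.014 to 0.059 on 221903_s_at, -0.057 to 0.047 on 221905_at and -0.17 to 0.089 on 39582_at. For RNF31 it was -0.052 to 0.17 on 225122_at and -0.012 to 0.064 on 231635_x_at, and for NAIP -0.20 to 0.037.

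Some counts moved, both where fewer probe sets were tested and where the same ones were normalized or fitted otherwise. With 1 probe set per gene (also refitted) 1 member probe set had an unadjusted p under 0.05 and 2 had both LPS arrays above, and without _x_at and _s_at probe sets these were 1 and 1. After median centring 5 had both LPS arrays below. All probe sets past the threshold were 6 higher and 11 lower after median centring, 5 and 5 with 1 refitted probe set per gene, 4 lower after quantile normalization or cyclic loess, 3 lower without _x_at and _s_at probe sets, and 1 lower with the 50 percentile filter or robust eBayes. The cause was not tested.

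Arrays with the same replicate number deviated together over tested probe sets (r = 0.214), but the labels do not say that the numbers mark experiments. With the replicate block 3 probe sets were past the threshold, all higher, 0 of them members. Adjusted p under this block was 0.145 and 0.150 for TNFAIP3 and 0.189 for TNIP1 243423_at.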
